A study of Mus musculus with 9 samples.

Results

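The genes described here are 10 mouse genes of glutathione metabolism (*Gclc*, *Gclm*, *Gsr*, *Gpx1* and *Gpx4*), superoxide removal (*Sod1* and *Sod2*) and metal binding (*Mt1*, *Mt2* and *Mt3*). They were chosen by gene symbol, and each was listed as 1 locus among 23997 symbols. Retinal ganglion cells (RGCs), the neurons whose axons form the optic nerve, were purified by immunopanning from C57BL/6J mice given as 8 weeks old in the sample labels. Control eyes had been injected with saline and the other eyes with polystyrene microbeads, which raise the intraocular pressure (IOP). Bead-injected eyes were assigned to Mild IOP or Moderate IOP by the rise in pressure measured over 2 weeks, so both IOP groups had received beads and were set apart by the pressure that followed. For each group the RNA was combined into 1 pool and divided among 3 libraries, 9 in all. The pool of Moderate IOP was made from fewer retinas than the other pools. With 1 pool per group, the pressure cannot be told apart from other differences between the pools. SDs, standard errors and p-values therefore cover the technical spread of 1 pool per group and not the spread between animals.

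Glutathione is a small cysteine-containing peptide that serves as the main soluble antioxidant of most cells. Glutamate-cysteine ligase, made of the catalytic subunit *Gclc* and the modifier subunit *Gclm*, carries out the rate-limiting step of its synthesis. Glutathione peroxidases spend it to reduce peroxides, and glutathione reductase (*Gsr*) restores it with NADPH. Superoxide dismutases convert superoxide to hydrogen peroxide, *Sod1* with copper and zinc mainly in the cytosol and *Sod2* with manganese in mitochondria. Metallothioneins bind zinc and copper through many cysteines. RGCs depend heavily on mitochondrial respiration, which is a source of superoxide.

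Expression was given as FPKM, fragments per kilobase of transcript relative to all mapped fragments of the library, so that levels are per length. Values below are scaled FPKM, that is FPKM divided by a library factor between 0.983 and 1.058, as mean ± SD (n = 3 libraries). The depth derived from the confidence intervals of the estimates lay between 4620000 and 8300000 fragments per library. Levels of different genes compare only roughly, as FPKM and the fragments derived in this way were not in proportion. In Control replicate 1, *Gpx4* (959 nt) had 748 FPKM on 1645 derived fragments, and *Gpx1* (1072 nt) had 121 FPKM on 750. The cause was not tested. In Mild IOP replicate 2, a single gene held 20.5% of the summed FPKM. The highest share of a single gene was 9.1% in Moderate IOP replicate 3 and at most 3.6% in the other libraries. Mild IOP replicate 2 also had the lowest level among all 9 libraries of every gene described here but *Gclc* and *Gsr*. A link between this and the share of the single gene was not tested. All 10 RGC markers of a fixed list averaged at least 1 FPKM. Their summed level was 1486 to 1566 in Control, 1080 to 1346 in Mild IOP and 2312 to 2452 in Moderate IOP. The gamma-synuclein gene *Sncg* makes up most of this sum. Not all RGC markers were higher in Moderate IOP than in Control. *Pou4f2* (8.91 against 9.51), *Pou4f3* (3.09 against 3.69) and *Rbpms2* (66.2 against 70.1) had lower means, and the rest of the list had higher ones. Transcripts of other retinal cells were present as well, amacrine markers at 765.7 to 813.6 in Control and rod markers at 450.4 to 532.4. In such bulk samples, fewer cells of a type and less RNA per cell cannot be told apart.

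Levels in Control ran from *Gpx4* at 710.2 ± 55.5 to *Gsr* at 7.56 ± 2.42. *Gpx4*, which reduces lipid peroxides in membranes, stood above 99.3% of the 13043 tested genes. *Mt1* came next at 510.0 ± 23.4, followed by *Sod1* at 279 ± 42.0 and *Gpx1*, the cytosolic peroxidase for hydrogen peroxide, at 107 ± 13.8. The libraries of neighbouring genes did not overlap down to this point. *Gpx1* overlapped *Mt3* (84.4 ± 20.7), and *Sod2* (36.7 ± 4.21) overlapped *Mt2* (26.2 ± 13.6). *Gclm* (17.8 ± 6.67), *Gclc* (15.3 ± 4.56) and *Gsr* overlapped each other in turn. The order of the 6 most abundant genes was the same in all 3 groups, although *Mt1* and *Sod1* overlapped in Moderate IOP. *Mt2* had the lowest mean of the 10 genes in Mild IOP, through Mild IOP replicate 2 alone, as its other libraries lay above all Mild IOP libraries of *Gsr*.

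**Figure D1:**
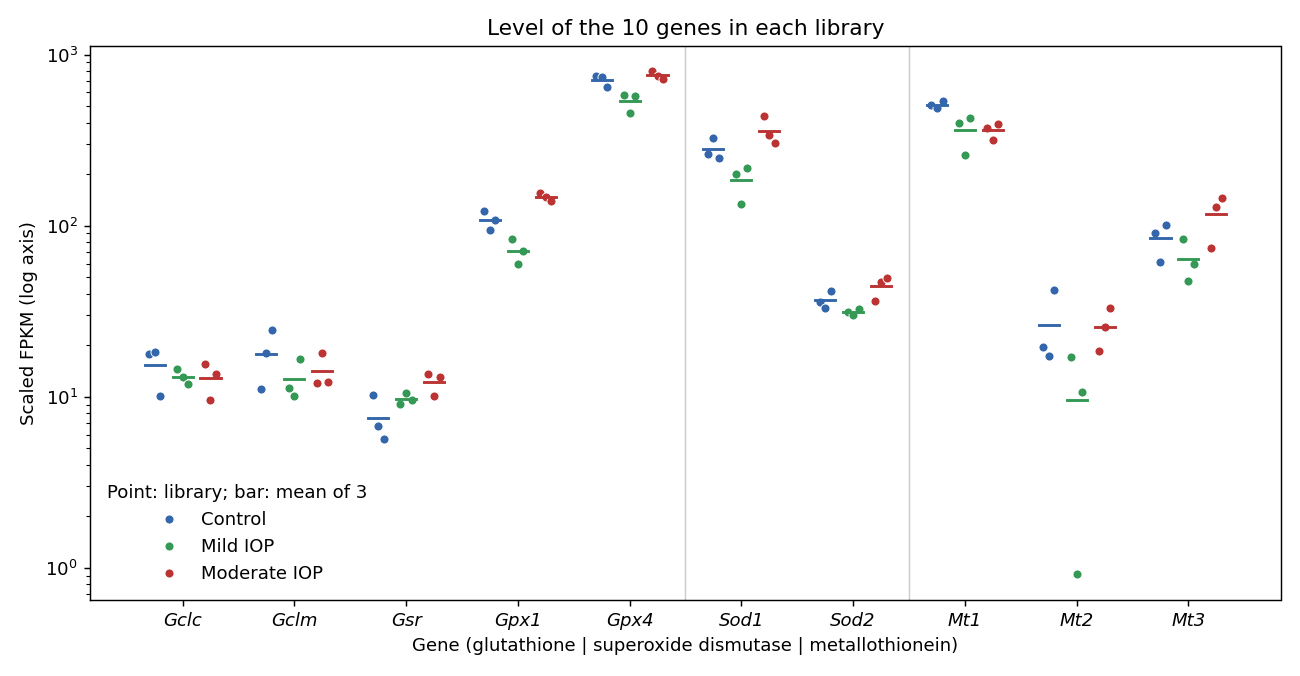
Scaled FPKM on a log axis for each of the 10 genes, in the 3 libraries of Control (blue), Mild IOP (green) and Moderate IOP (red), with a bar at the mean of the 3. The green points of *Gpx1*, *Gpx4* and *Sod1* lie below all blue and red ones, both groups of *Mt1* with raised IOP lie below Control, and 1 green point of *Mt2* lies near 1 FPKM.

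Differences between groups were tested with limma on log2(scaled FPKM + 1) over all 13043 tested genes, with Benjamini-Hochberg adjusted p-values (FDR). Against Control, 0 of the 10 genes reached an FDR below 0.1 in Mild IOP, where 0.399% of all tested genes did, and 0 of 10 did so in Moderate IOP, where 1.84% did. At an unadjusted p below 0.05, 5 of 10 were lower in Mild IOP than in Control (*Gpx1*, *Gpx4*, *Sod1*, *Mt1* and *Mt2*), against 7.0% of all tested genes. In Moderate IOP the same threshold was passed by *Gsr* and *Gpx1*, which were higher (8.03% of all tested genes were), and by *Mt1*, which was lower (7.26% were). The libraries of Mild IOP lay entirely below those of Control for 6 of 10 genes, the same 5 and *Sod2*, against 9.13% of all tested genes. Moderate IOP lay entirely above Control for *Gpx1* (9.95% of all tested genes did) and entirely below it for *Mt1* (9.48% did). Between Moderate IOP and Mild IOP, 4 of 10 genes were higher at an FDR below 0.1 (*Gpx1*, *Sod1*, *Gpx4* and *Sod2*) and 0 were lower, against 7.03% of all tested genes higher and 3.12% lower. Moderate IOP lay entirely above Mild IOP for these 4 and *Mt2*, against 14.5% of all tested genes. *Gpx1* and *Sod1* also passed a fold-change of 1.5, as 5.8% of tested genes did in that direction. The median log2 fold-change of the 10 genes was −0.42 for Mild IOP against Control, 0.17 for Moderate IOP against Control and 0.49 for Moderate IOP against Mild IOP, beside 0.006, 0.004 and −0.016 over all tested genes. The comparisons share their groups, so these values are not separate evidence. Mild IOP against Control also varied with transcript length over all genes. The median log2 fold-change was −0.45 for transcripts of at most 1000 nt, the class of *Gpx4*, *Sod1*, *Mt1*, *Mt2* and *Mt3*, and 0.09 above 4000 nt.

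**Figure D2:**
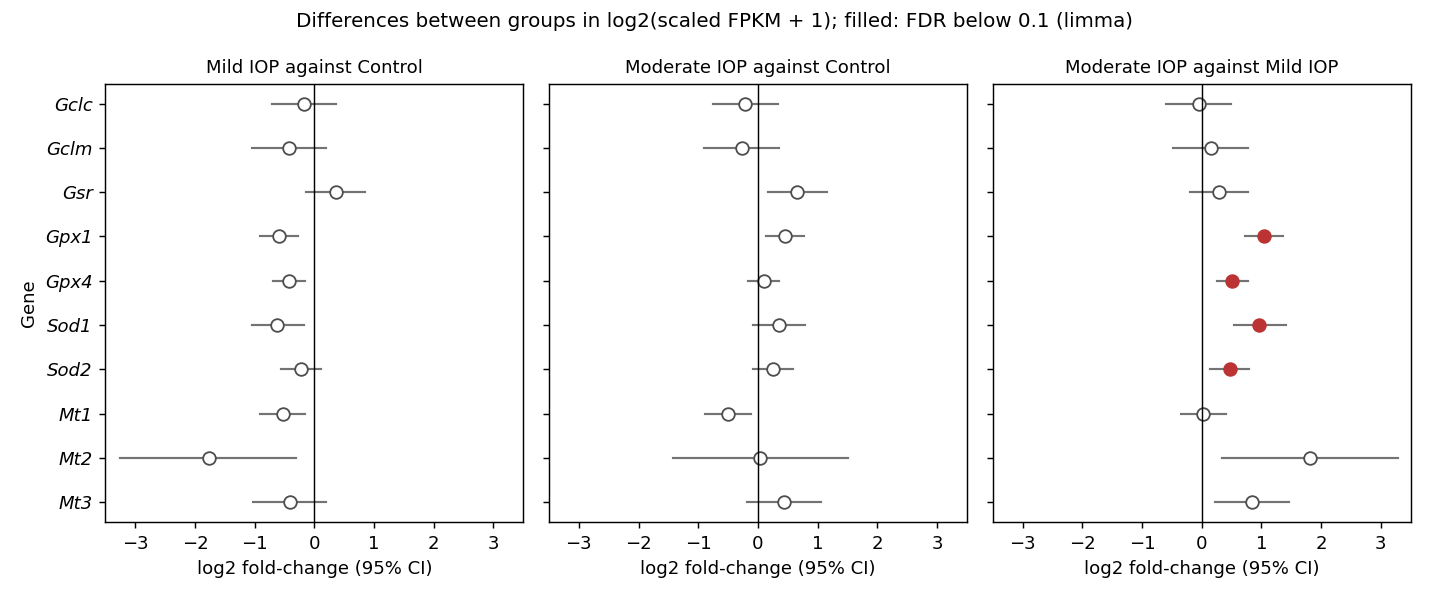
Log2 fold-change of each gene with its 95% confidence interval in the 3 comparisons, from limma over 9 libraries. Filled red points have an FDR below 0.1, and they are found only in the comparison of Moderate IOP with Mild IOP, for *Gpx1*, *Gpx4*, *Sod1* and *Sod2*.

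Both glutathione peroxidases were lower in Mild IOP than in Moderate IOP. Their transcripts contain an in-frame TGA codon that is read as selenocysteine, the residue at the active site of these enzymes. The stretch of 10 codons on each side of it is shown for both, since this feature sets them apart from the other 8 genes, whose reading frames hold none. Bases are from GENCODE M21 transcripts on mm10, plus strand, with the TGA in capitals. *Gpx1* has it as codon 47 of 201 (coding sequence chr9:108339313-108340136, codons 37 to 57 shown) and *Gpx4* as codon 73 of 197 (chr10:80053632-80056218, codons 63 to 83 shown).
Gpx1: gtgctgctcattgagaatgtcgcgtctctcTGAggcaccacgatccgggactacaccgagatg
Gpx4: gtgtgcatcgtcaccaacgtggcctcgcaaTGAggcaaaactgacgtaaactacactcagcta

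*Gpx1* was at 121, 93.7 and 107 FPKM in the Control libraries, at 83.2, 59.6 and 71.15 in Mild IOP and at 154, 147 and 139.9 in Moderate IOP. The 3 groups did not overlap, with Mild IOP lowest and Moderate IOP highest. Moderate IOP exceeded Mild IOP 2.06-fold, a log2 fold-change of 1.04 ± 0.15 (SE, limma, FDR = 0.0058). Against Control the log2 fold-change was −0.59 in Mild IOP (FDR = 0.19) and 0.46 in Moderate IOP (FDR = 0.18), and neither passed the threshold. Without Mild IOP replicate 2 the difference between the IOP groups was 0.93 (limma, FDR = 0.013).

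*Gpx4* was at 748, 736 and 646.5 FPKM in Control, at 577, 453 and 570.4 in Mild IOP and at 800.2, 752 and 723 in Moderate IOP. Mild IOP lay below all other libraries, and Control and Moderate IOP overlapped. The log2 fold-change of Moderate IOP against Mild IOP was 0.51 ± 0.12 (SE, limma, FDR = 0.035), a rise of 42.1%. It was −0.42 for Mild IOP against Control (FDR = 0.24) and 0.1 for Moderate IOP against Control (FDR = 0.76). The difference between the IOP groups missed the threshold without Moderate IOP replicate 1 (0.48, limma) and kept it without Mild IOP replicate 2 (0.4, FDR = 0.08). Of the 50-base runs in the *Gpx4* transcript, 68.9% also occur in the processed copy *Gpx4-ps2*, so its FPKM depends on how the authors' counting divided such reads. The ratio of *Gpx4* to *Gpx1*, which does not depend on the library factor, was 5.12 to 5.19 in the Moderate IOP libraries, 6.94 to 8.02 in Mild IOP and 6.03 to 7.86 in Control. The Moderate IOP libraries thus lay below all others, with relatively more *Gpx1*, and no test was run on this ratio.

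None of the 3 genes of glutathione synthesis and recycling reached an FDR below 0.1 in any comparison, and *Gsr* alone was below an unadjusted p of 0.05, in Moderate IOP against Control (limma). *Gsr* was at 10.3, 6.70 and 5.68 FPKM in Control, at 9.11, 10.5 and 9.63 in Mild IOP and at 13.5, 10.1 and 13.1 in Moderate IOP. Its Moderate IOP libraries overlapped Control through Control replicate 1, and the log2 fold-change of 0.66 ± 0.22 missed the threshold (SE, limma, FDR = 0.2). *Gclc* lay between 9.51 and 18.2 FPKM in all 9 libraries and *Gclm* between 10.15 and 24.4, with every pair of groups overlapping. Their log2 fold-changes ran from −0.42 to 0.15, with FDR of 0.68 or more in limma. The intervals still allow sizeable differences, from −0.76 to 0.33 for *Gclc* and from −0.9 to 0.35 for *Gclm* in Moderate IOP against Control (95% confidence). The derived number of fragments behind a value went as low as 75.1 for *Gsr*, whereas it was at least 320.5 for *Gpx1* and 1216 for *Gpx4*.

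Both superoxide dismutases were higher in Moderate IOP than in Mild IOP, and the order of their log2 fold-changes turned with the trend with transcript length removed (0.35 for *Sod1*, which lost its call, and 0.61 for *Sod2*). *Sod1* was at 261.5, 326.5 and 248 FPKM in Control, at 201.3, 134 and 216.5 in Mild IOP and at 435, 337 and 304 in Moderate IOP. Its Mild IOP libraries lay below all others, and Moderate IOP overlapped Control. The log2 fold-change of Moderate IOP against Mild IOP was 0.97 ± 0.20 (SE, limma, FDR = 0.019), a 1.95-fold difference, and it was 0.76 without Mild IOP replicate 2 (FDR = 0.049). Against Control it was −0.62 in Mild IOP (FDR = 0.27) and 0.36 in Moderate IOP (FDR = 0.42). Of its 50-base runs, 23.1% also occur in the annotated gene *Gm8566*.

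*Sod2* was at 35.9, 33.0 and 41.3 FPKM in Control, at 31.2, 30.2 and 32.6 in Mild IOP and at 36.3, 46.7 and 49.4 in Moderate IOP. The Mild IOP libraries lay closely together below both other groups. The log2 fold-change between the IOP groups was 0.47 ± 0.15 and passed only narrowly (SE, limma, FDR = 0.099). It kept its call in 2 of 9 fits that left out 1 library each, with FDR up to 0.27 without Mild IOP replicate 2, and in 3 of 9 other settings, with 0.39 for FPKM as deposited (limma, FDR = 0.16). The log2 fold-changes against Control were −0.22 for Mild IOP (FDR = 0.7) and 0.25 for Moderate IOP (FDR = 0.46, limma). The level of *Sod1* was 6.002 to 9.89 times that of *Sod2* in the Control libraries, 4.44 to 6.65 times in Mild IOP and 6.15 to 11.99 times in Moderate IOP, and every pair of groups overlapped.

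The metallothioneins lie side by side on chromosome 8, in the order *Mt3* (chr8:94152607-94154148), *Mt2* (chr8:94172618-94173567) and *Mt1* (chr8:94179089-94180327), all on the plus strand of mm10. Their coding sequences are shown because *Mt1* and *Mt2* are close copies of each other, while their levels here differed greatly. The codons for cysteine, the metal-binding residue, are in capitals, and there are 20 of them in each of the 3 genes, 32.8% of the 61 codons in *Mt1* and *Mt2* and 29.4% of the 68 in *Mt3*. *Mt1* and *Mt2* have the same base at 148 of 186 coding positions (79.6%). No run of 50 bases in any of the 3 transcripts occurs, in the same orientation, in a transcript of another annotated gene. Sequences are from GENCODE M21 on mm10.
Mt1: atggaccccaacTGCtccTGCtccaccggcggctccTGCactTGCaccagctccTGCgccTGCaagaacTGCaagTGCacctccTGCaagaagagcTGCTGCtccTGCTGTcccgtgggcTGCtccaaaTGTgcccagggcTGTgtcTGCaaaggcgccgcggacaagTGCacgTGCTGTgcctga
Mt2: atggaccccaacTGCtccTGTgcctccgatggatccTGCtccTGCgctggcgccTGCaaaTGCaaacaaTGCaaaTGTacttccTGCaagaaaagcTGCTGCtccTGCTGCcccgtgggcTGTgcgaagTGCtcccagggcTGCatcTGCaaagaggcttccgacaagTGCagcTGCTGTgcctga
Mt3: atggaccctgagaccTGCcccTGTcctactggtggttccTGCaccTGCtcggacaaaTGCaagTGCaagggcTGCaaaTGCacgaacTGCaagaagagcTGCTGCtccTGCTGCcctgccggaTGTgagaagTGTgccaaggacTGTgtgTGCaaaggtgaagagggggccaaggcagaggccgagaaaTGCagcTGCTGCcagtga

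*Mt1*, the most abundant of the 3, was at 507.6, 488 and 534.5 FPKM in Control, at 399, 258 and 427 in Mild IOP and at 375, 318 and 392 in Moderate IOP. All 6 libraries with raised IOP lay below all Control libraries. The log2 fold-change was −0.53 ± 0.17 in Mild IOP (SE, limma, FDR = 0.29) and −0.5 ± 0.17 in Moderate IOP (FDR = 0.21), changes of −29.2% and −29.1% in mean FPKM, and neither passed the threshold. The difference in Moderate IOP passed when Mild IOP replicate 2 was left out of the shared estimate of spread (−0.5, limma, FDR = 0.061). Moderate IOP and Mild IOP differed by 0.03 on the log2 scale (95% confidence interval −0.35 to 0.41), and this sign turned with FPKM as deposited (−0.06) and without Mild IOP replicate 2 (−0.19).

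*Mt2* was at 19.6, 17.3 and 41.8 FPKM in Control, at 17.1, 0.915 and 10.6 in Mild IOP and at 18.5, 25.6 and 32.9 in Moderate IOP. Mild IOP lay below both other groups, with a narrow gap between 17.1 and 17.3. The value of 0.915 in Mild IOP replicate 2 rests on about 2 fragments, whose exact Poisson interval runs from 0.111 to 3.31 FPKM for counting error alone. The log2 fold-change between the IOP groups was 1.82 ± 0.67 (SE, limma, FDR = 0.14), and it became 0.84 without that library (FDR = 0.33) and 2.46 without Mild IOP replicate 1 (FDR = 0.074). Against Control it was −1.77 in Mild IOP (FDR = 0.38), −0.8 without that library, and 0.04 in Moderate IOP. An annotated gene on the opposite strand, *Gm45774*, overlaps exons of *Mt2*.

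*Mt3*, the form enriched in the brain, was at 90.8, 61.2 and 101.2 FPKM in Control, at 83.3, 47.7 and 59.3 in Mild IOP and at 74.4, 129 and 146 in Moderate IOP. Every pair of groups overlapped, and Moderate IOP overlapped the other groups through its replicate 1 alone. The log2 fold-change between the IOP groups was 0.85 ± 0.28 (SE, limma, FDR = 0.11). It passed without Mild IOP replicate 1 (1.06, limma, FDR = 0.091) and without Moderate IOP replicate 1 (1.14, FDR = 0.05). Within the summed metallothionein level, *Mt3* held 25.5% and 27.2% in Moderate IOP replicates 3 and 2 but 15.9% in replicate 1, and 10.8% to 16.7% in the 6 libraries of Control and Mild IOP.

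The difference between the IOP groups varied with transcript length over all genes, and the 10 genes have transcripts from 511 nt (*Mt2*) to 5861 nt (*Sod2*). Lengths of the principal GENCODE transcript were matched for 95.3% of tested genes. Among 885 genes with transcripts of at most 1000 nt, 36.9% were higher in Moderate IOP than in Mild IOP at an FDR below 0.1, and 78.6% of the 257 that also averaged at least 100 FPKM. Among 4055 genes over 4000 nt it was 1.53%. *Gpx4* (959 nt), *Sod1* (641 nt) and *Mt1* (549 nt) belong to the short and abundant class, whose median log2 fold-change was 0.8. *Sod1*, at 0.97, exceeded 187 of these 257 genes, *Gpx4*, at 0.51, exceeded 33 and *Mt1*, at 0.03, exceeded 6. Among genes of this length and level, a call in this direction was the common case. For *Gpx1* (1072 nt) the matching class, 1000 to 2000 nt and at least 100 FPKM, had 39.4% called higher. For *Sod2* the class over 4000 nt and 10 to 100 FPKM had 3.28% called higher.

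When the trend with length was removed from each library, an alternative added after seeing the data, the log2 fold-change of Moderate IOP against Mild IOP was 0.63 for *Gpx1* (limma, FDR = 0.038) and 0.61 for *Sod2* (FDR = 0.068). *Sod1* was then at 0.35 (FDR = 0.24) and *Gpx4* at 0.05 (FDR = 0.83), and neither passed. *Mt1* turned to −0.63 (limma, FDR = 0.03), and against Control it passed in Moderate IOP at −0.74 (FDR = 0.024) but not in Mild IOP at −0.11 (FDR = 0.9). Among the 257 short and abundant genes, only 5 had a lower log2 fold-change in Moderate IOP against Control than *Mt1*. In Mild IOP against Control, *Mt1* at −0.53 was close to the class median of −0.54. *Sod1* at −0.62 and *Gpx4* at −0.42 also lay within the range of most of that class (5% to 95%, −0.99 to −0.18). The part of transcript length in these differences was not tested further.

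**Figure D3:**
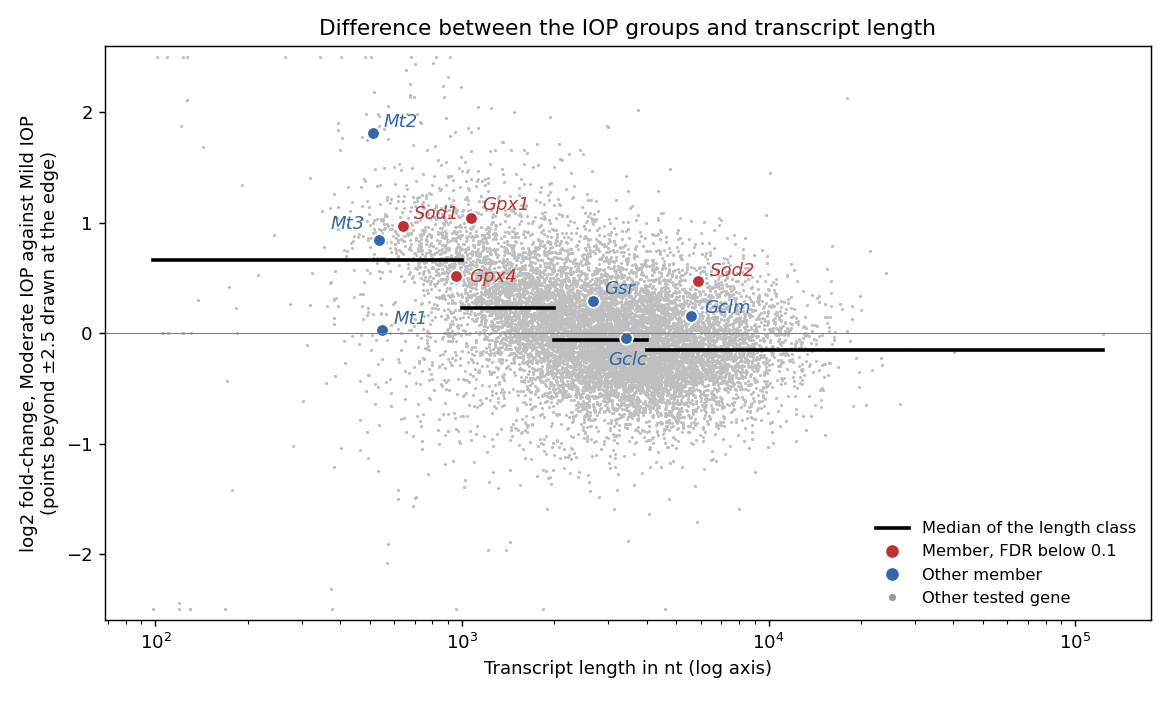
Log2 fold-change of Moderate IOP against Mild IOP against transcript length in nt on a log axis, for tested genes with a matched length (grey), the 10 genes (red with an FDR below 0.1, blue otherwise) and the median of 4 length classes (black lines). The medians fall from 0.66 at up to 1000 nt to −0.15 above 4000 nt, *Mt1* lies below the line of its class and *Sod2* above it.

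Some cell type markers moved with the same comparison, in which 7.03% of all tested genes were called higher and 3.12% lower. Of the 10 RGC markers, 5 were higher in Moderate IOP than in Mild IOP at an FDR below 0.1 and 0 were lower (limma). Of these, *Sncg* (gamma-synuclein) averaged 641 ± 117 FPKM over the Mild IOP libraries and 1389 ± 34.1 over the Moderate IOP libraries, and *Nefl* (neurofilament light chain) at 374 ± 10.1 and 537 ± 18.2. Of 6 amacrine markers, 3 were lower in Moderate IOP than in Mild IOP, with sums of 546.4 to 596.7 against 841.6 to 900.5 FPKM. *Gad1*, which makes GABA, averaged 587 ± 27.5 FPKM over Mild IOP and 421 ± 21.5 over Moderate IOP, and *Slc6a9*, a glycine transporter, at 146 ± 3.81 and 39.3 ± 6.93. *Gad1* makes up most of the amacrine sum. Not all amacrine markers fell, as *Tfap2a*, *Tfap2b* and *Slc32a1* had higher means in Moderate IOP than in Mild IOP.

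The Müller glia list summed to 611.2 to 660.4 FPKM in Mild IOP and 604.7 to 653.3 in Moderate IOP. Of its 8 genes, 2 were called higher and 0 lower, beside 7.03% and 3.12% of all tested genes. Its most abundant genes were *Dkk3*, which makes up most of the sum, at 509 ± 41.2 and 423 ± 28.8, and *Apoe*, a lipid carrier, at 81.2 ± 10.3 and 127 ± 20.6. *Glul*, at 23.3 ± 2.28 and 46.7 ± 10.2, *Rlbp1*, *Vim*, *Car14* and *Aqp4* also had higher means in Moderate IOP, and *Slc1a3* a lower one. Several lists also moved in Moderate IOP against Control, where *Mt1* was lower without passing the threshold. Called higher were 2 of 10 RGC and 3 of 8 Müller glia markers, beside 0.951% of all tested genes. Called lower were 2 of 6 amacrine, 3 of 7 rod and 4 of 5 tested lens markers, beside 0.889%. Lens genes summed to 287.5 to 343 FPKM in Control and at most 5.71 in every other library, and *Crygs* was listed at 0 in all 6 libraries with raised IOP. *Cryaa*, a lens chaperone, was at 112 ± 18.6 in Control and at most 1.201 elsewhere. Rod genes summed to 450.4 to 532.4 in Control, 294 to 330 in Mild IOP and 288 to 339 in Moderate IOP, led by *Sag* (rod arrestin), at 163 ± 14.7 in Control, and *Gnat1* (rod transducin), at 147 ± 21.3.

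Microglia markers summed to 23.0 to 45.4 FPKM over the 9 libraries, with *C1qb* and *Tyrobp* leading. Cone markers (*Pde6h* and *Opn1mw*) reached at most 19.1 and astrocyte markers (*Igf1* and *S100b*) at most 12.8. Horizontal cell, endothelial and pigment epithelium markers summed to at most 2.89, 8.31 and 2.25, with *Lhx1*, *Cldn5*, *Cdh5* and *Rpe65* listed at 0 in every library, and their highest genes were *Onecut1* and *Onecut2*, *Rgs5* and *Flt1*, and *Best1* and *Rgr*. The part of any of these cell types in the values of the 10 genes was not tested.

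A list of 82 other genes of glutathione use, redox control and metal handling gave 67 tested genes. In both comparisons with Control, 0 of them reached an FDR below 0.1, and at an unadjusted p below 0.05 there were 2 higher (2.99%) and 9 lower (13.4%) in Mild IOP, beside 3.15% and 7.0% of all tested genes, and 6 higher (8.96%) and 5 lower (7.46%) in Moderate IOP, beside 8.03% and 7.26% (limma). Between Moderate IOP and Mild IOP, 9 were higher (13.4%) and 0 lower, beside 7.03% and 3.12% of all tested genes. Without Mild IOP replicate 2 or Moderate IOP replicate 1 the count was 3, without Mild IOP replicate 1 or Moderate IOP replicate 2 it was 4, and without Moderate IOP replicate 3 it was 5. The count was 3 (*Glo1*, *Mgst3* and *Sod3*) with the trend with length removed. The median log2 fold-change of the 67 genes was 0.1.

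Glutathione transferases, which attach glutathione to reactive compounds, gave 4 of 18 tested genes, where 7.03% of all tested genes and 36.9% of those with transcripts of at most 1000 nt were called higher. *Mgst3*, a membrane-bound member, averaged 166 ± 26.5 FPKM over Mild IOP and 333 ± 75.9 over Moderate IOP, and all Moderate IOP libraries lay above all Control libraries (179 to 244). Its log2 fold-change between the IOP groups was 0.99 ± 0.19 (SE, limma, FDR = 0.016). *Gstp1*, the most abundant transferase at 491 ± 58.2 in Control, differed by 0.57 (FDR = 0.081), *Gsta4* by 0.78 (FDR = 0.095) and *Gsto1* by 0.53 (FDR = 0.087). All 3 of these had Mild IOP libraries that lay below all Moderate IOP libraries.

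Among the extracellular and neighbouring antioxidant enzymes, *Sod3*, the secreted superoxide dismutase, was at 6.08, 6.87 and 9.76 FPKM in Mild IOP and at 24.1, 16.65 and 11.5 in Moderate IOP. The groups did not overlap, and the log2 fold-change was 1.07 ± 0.26 (SE, limma, FDR = 0.04). *Gpx3*, a secreted glutathione peroxidase, differed by 1.35 (FDR = 0.093), with a value as low as 1.33 FPKM in Mild IOP replicate 3. *Ccs*, the copper chaperone that loads *Sod1*, and *Cat*, catalase, differed by −0.23 and 0.18 and did not pass. *Gpx7* was at 3.32 in Control and differed by −0.17.

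*Atox1*, a copper chaperone of the cytosol, had the largest log2 fold-change of the 9 after *Gpx3*, 1.17 ± 0.21 (SE, limma, FDR = 0.012). It was at 183, 94.98 and 147.5 FPKM in Mild IOP and at 273, 308.5 and 348.5 in Moderate IOP. Of the other 8 tested genes of zinc and copper handling 0 passed, among them *Slc30a3*, a zinc transporter of synaptic vesicles, at −0.03. *Glo1* (glyoxalase, which detoxifies methylglyoxal with glutathione) differed by 0.63 (limma, FDR = 0.027), while *Hagh* and *Glrx5* differed by 0.36 and 0.54 and did not pass. *Taldo1* of the pentose phosphate pathway differed by 0.52 (limma, FDR = 0.061), whereas *Tkt* of the same pathway, at 462 FPKM in Control, differed by −0.15.

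In the remaining subgroups, 0 genes passed. Of 7 tested genes of glutathione synthesis and turnover, the most abundant were *Ggt7* and *Chac1*, which differed by −0.24 and 0.29 between the IOP groups. Of 5 genes for uptake of cystine, cysteine and glutamate they were *Slc3a2* and *Slc1a1*, at −0.08 and −0.31. Among 8 tested genes of NRF2, the transcription factor that drives *Gclc*, *Gclm* and other antioxidant genes, and its targets, *Srxn1* and *Keap1* differed by 0.16 and −0.12.

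**Figure D4:**
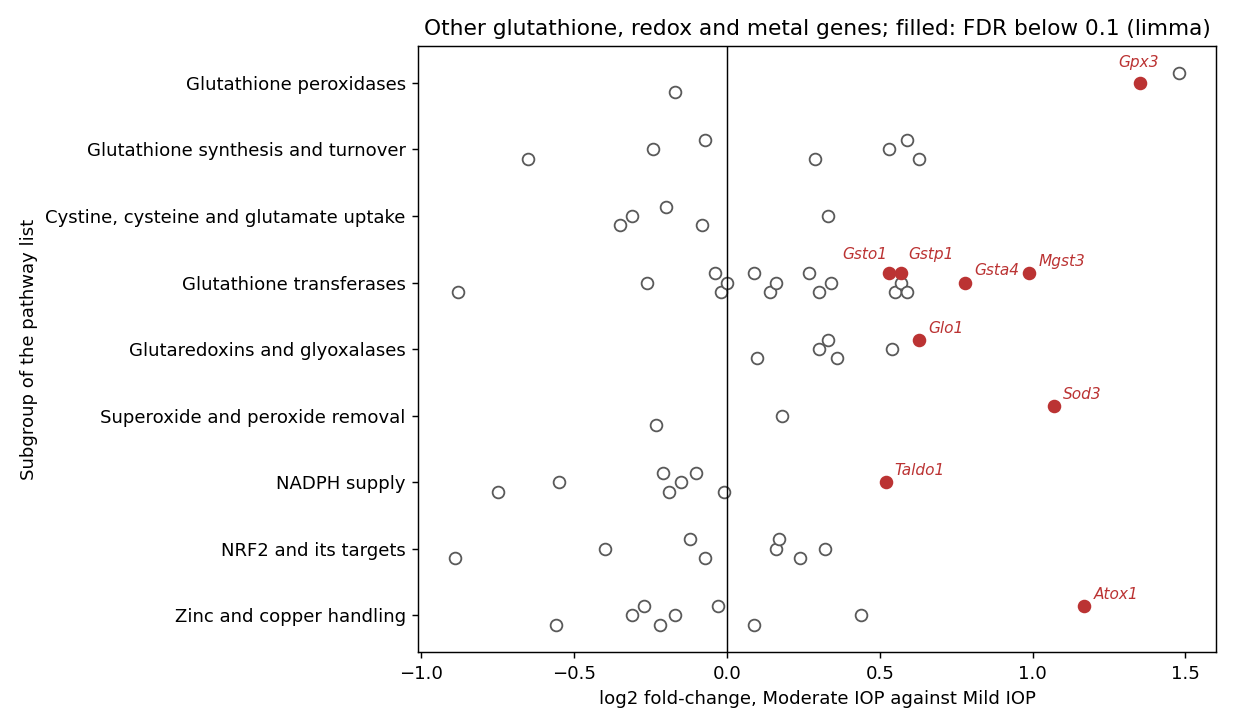
Log2 fold-change of Moderate IOP against Mild IOP for the 67 tested genes of the pathway list, 1 point a gene, in 9 subgroups. Filled red points are the 9 genes with an FDR below 0.1, all to the right of 0, and 4 of them are glutathione transferases.

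Over the 9 libraries, the tested genes whose log2 level correlated most closely with *Gpx4* were *Rpl7a* (Pearson r = 0.989), *Ngfrap1* (0.988) and *Rps15* (0.988). For *Sod1* they were *Pomp* (0.985), *Rps3* (0.984) and *Ap2s1* (0.976). *Gpx4* and *Sod1* correlated with each other at 0.95. The closest genes to *Mt1* were *Mpp7* (0.948), *Zfp622* (0.939) and *Arhgap27* (0.929), with transcripts of 4981, 2802 and 3976 nt, and *Mt1* correlated at 0.46 with *Gpx4* and at 0.68 with *Mt2*. These are descriptions over 9 libraries from 3 pools, picked as the highest of all tested genes.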

How the data were processed

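The authors deposited, for each library, the FPKM of every gene locus with its confidence interval. The methods name bowtie2, cufflinks and cuffdiff on mm10, and the submitters' processing notes name FastQC, Trimmomatic, TopHat2, Cufflinks and Cuffdiff. Libraries were made by oligo-dT cDNA synthesis (SMART-seq v4) and Nextera XT tagging and sequenced from both ends. FPKM were summed per symbol, and 2 symbols with an estimate that had failed somewhere were left out. The fragments behind a value were derived from its confidence interval, and depth from transcripts of at least 2000 nt with at least 100 fragments.

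Scaling used median-of-ratios factors. Genes averaging 0.5 scaled FPKM or more were fitted on log2(scaled FPKM + 1) with limma 3.58.1 in R 4.3.3 over all 9 libraries, with a variance trend and Benjamini-Hochberg adjustment (FDR below 0.1, fold-change 1.5). On simulated data with 13043 genes, 189 of 200 genes changed by 2 on the log2 scale between Moderate IOP and Control were recovered, with 29 false calls. That change is larger than the log2 fold-changes called between the IOP groups for *Gpx1* (1.04), *Sod1* (0.97), *Gpx4* (0.51) and *Sod2* (0.47). Recovery of changes of such smaller sizes was not tested, so the simulation does not bear on the genes that missed the threshold against Control. Python 3.11.15 served for tables and figures, with pandas 2.3.3 and matplotlib 3.10.9. Transcript lengths, coding sequences and shared 50-base runs are from GENCODE M21.

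The 10 genes, the pathway list and the marker lists were chosen with earlier results of these data known. Named genes are the 10 members, pathway genes with an FDR below 0.1 and the 2 most abundant of each subgroup or marker list, and the 3 genes closest in correlation to the most abundant member of each family. The result of 1 marker list is not reported here. Alternatives covered scaling, pseudocount, filter, failed estimates, the groups fitted, a replicate block, the highest locus per symbol, each library left out, and, added later, trends with transcript length. Reads were not realigned.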

Additional observations from a re-analysis of the deposited data

Results flagged for a closer look

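The effects of Mild IOP and Moderate IOP, both taken against Control, differed at an FDR below 0.1 in limma for 4 of the 10 genes, beside 10.2% of all tested genes. Called higher in Moderate IOP than in Mild IOP were 7.03% of all tested genes and 78.6% of the short and abundant ones. As both effects share the Control libraries, this difference is the same quantity as Moderate IOP against Mild IOP. It was 1.04 for *Gpx1*, 0.51 for *Gpx4*, 0.97 for *Sod1* and 0.47 for *Sod2* on the log2 scale, each with a negative effect of Mild IOP and a positive effect of Moderate IOP that did not pass on their own. The same test picked out 9 genes of the pathway list, at 1.35 for *Gpx3*, 0.78 for *Gsta4*, 0.57 for *Gstp1*, 0.53 for *Gsto1*, 0.99 for *Mgst3*, 0.63 for *Glo1*, 1.07 for *Sod3*, 0.52 for *Taldo1* and 1.17 for *Atox1*. All 13 differences are positive, as were 69.3% of the calls over all tested genes. With the trend with transcript length removed, *Sod1* (0.35, limma, FDR = 0.24) and *Gpx4* (0.05, FDR = 0.83) lost the call, and 3 of the 9 pathway genes kept it.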

How the results depend on the processing

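*Gpx1* and *Sod1* kept their direction and an FDR below 0.1 between the IOP groups under all 9 other settings of scaling, pseudocount, filter, groups fitted, block, failed estimates and loci, and in all 9 fits that left out 1 library, and *Gpx4* in all but the fit without Moderate IOP replicate 1. The count of the 10 genes in that comparison ran from 3 to 5. Over all tested genes 69.3% of calls between the IOP groups were higher, 52.5% with FPKM as deposited and 57.4% with upper quartile scaling. The count of all tested genes called in Mild IOP against Control was 52 and became 24 without a filter, 85 with a mean of at least 5 FPKM, 11 with only the compared groups, 20 and 18 with the trend with length, or with length and level, removed, and 15 to 183 with 1 library left out. In Moderate IOP against Control it was 240, 134 with only the compared groups and 61 to 287 with 1 library left out. Between the IOP groups it was 1324, 489 and 443 with these trends removed, and 519 to 1399 with 1 library left out. Of the 10 genes, *Mt1* alone was called in Moderate IOP against Control with either trend removed (1), and 0 to 1 with a library left out. The pathway list count was 0 to 1 in Moderate IOP against Control with a library left out. Between the IOP groups it was 5 with FPKM as deposited, 14 with a mean of at least 5 FPKM, 3 and 2 with the trends removed, and 3 to 10 with a library left out.

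Signs turned for log2 fold-changes that had not passed, and for *Gpx4* between the IOP groups, at −0.1 with length and level removed. With length, or length and level, removed, *Mt3* in Mild IOP against Control was 0.01 and 0.08, *Gpx4* in Moderate IOP against Control −0.07 and −0.11, and *Mt2* there −0.2 and −0.17. Between the IOP groups *Gclc* was then 0.05 and 0.07, and *Mt1* −0.63 and −0.72. *Mt1* was also −0.06 with FPKM as deposited and −0.04 with upper quartile scaling. With 1 library left out, *Mt2* in Moderate IOP against Control ran from −0.19 to 0.42, and between the IOP groups *Gclc* from −0.18 to 0.14, *Gclm* from −0.03 to 0.35 and *Mt1* from −0.19 to 0.17. The cause was not tested.

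Replicates with the same number did not deviate together (correlations −0.01 to 0.04), so the numbers do not pair the libraries. With a replicate block, the counts of all tested genes against Control were 25 in Mild IOP and 135 in Moderate IOP, and of the 10 genes *Sod2* alone lost its call (0.47, FDR = 0.11, limma). The number of fragments limits *Mt2* most, and counting intervals cover counting error only.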
